A study of Mus musculus with 3 samples.

Results

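The genes of cholesterol and fatty acid synthesis and transport were followed through 3 cell fractions of the mouse olfactory epithelium. The 38 genes were taken by name and belong to the mevalonate step (7 genes), the sterol step (10), fatty acid synthesis and desaturation (9), sterol transport and efflux (7) and regulation of the pathway (5). Of these, 36 were measured, out of 18193 genes named on the array, and Acat2 and Soat1 were not analysed here. Each gene was read from its brightest probe set (mean over the arrays), and all 36 lay above the floor of 104 signal units on the 3 arrays.

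The cells came from Tgn1-2G transgenic mice of both sexes at postnatal days 5 to 8 and were sorted by GFP brightness. The GFP+++ fraction (1000000 cells, brightly GFP positive) was enriched in immature olfactory sensory neurons (OSNs). The GFP+ fraction (1300000 cells, weakly positive) was slightly enriched in mature OSNs, and the GFP- fraction (6800000 cells) held every cell type of the epithelium with fewer immature neurons. Each fraction is labelled with the number 32 without saying what it counts, and every fraction carries the same transgene and age. The name Tgn1-2G refers, as known from other work, to a GFP transgene under Neurog1 control elements. GFP is stable and can outlast that gene's activity, so brightness grades cells rather than marking a single type. Each fraction was measured on 1 array, so no value has a replicate error, no test was possible and no difference has a replicate check.

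Cholesterol is built from acetyl-CoA through mevalonate and isoprenoid units to squalene, which is closed to lanosterol and then trimmed to cholesterol. The transcription factors SREBP-1 and SREBP-2, made by Srebf1 and Srebf2, switch on these genes. When sterol is scarce, SCAP escorts them out of the endoplasmic reticulum, and INSIG proteins hold them back when it is plentiful. Cells rich in sterol instead use liver X receptors (LXR) to raise exporters such as ABCA1 and the lipoprotein APOE. Growing neurons need membrane for axons, dendrites and, in OSNs, cilia, and glia and macrophages are known suppliers of APOE particles.

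Markers in part bore out the sort. Gap43, a growth cone protein of immature OSNs, read 11233 signal units on the GFP+++ array, 6006 on GFP+ and 6395 on GFP-. Omp, which marks mature OSNs, read 5041, 10615 and 7748 in the same order, and Neurog1 read 1492, 1363 and 1202. The median log2 fold of GFP+++ over GFP- was 0.65 over 10 immature OSN markers and -0.46 over 9 mature OSN markers. With each array scaled by its own median these folds move up by about the amount the median of all genes moves, from 0.01 to 0.42. The arrays shared the same 2% trimmed mean but had median signals of 88.2 (GFP+++), 107 (GFP+) and 118 (GFP-). GFP+++ therefore had more dim probe sets and fewer genes above the floor (10734, against 11674 and 12031).

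The 36 genes did not move as a block. Against GFP-, the GFP+++ array was higher for the mevalonate and sterol enzymes and lower for the exporters and for a pair of fatty acid enzymes. With 2-fold as the threshold for a call, 2 genes were higher (Mvk and Cyp51) where 1.92% of the 12235 genes compared were, and 4 were lower (Apoe, Abca1, Elovl6 and Scd1) where 12.4% were. The median log2 fold was 0.29, with 24 of 36 genes above 0 where 50.7% of all genes were. Among genes above the floor on both arrays, as all 36 were, the shares were 2.08% higher, 8.57% lower and 57% above 0. Measurement error of the arrays was gauged by genes read on more than 1 probe set. Around the mean of their own gene, the log2 folds of these probe sets had a pooled SD of 0.30 for this comparison (4633 genes). This disagreement between probe sets of the same gene is called the array error. By that yardstick 17 of the 36 genes lay above 0.30 (25.1% of all genes), 9 below -0.30 (30.2%) and 10 within. It holds nothing of the spread between mice, sorts or labelling reactions.

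**Figure D1:**
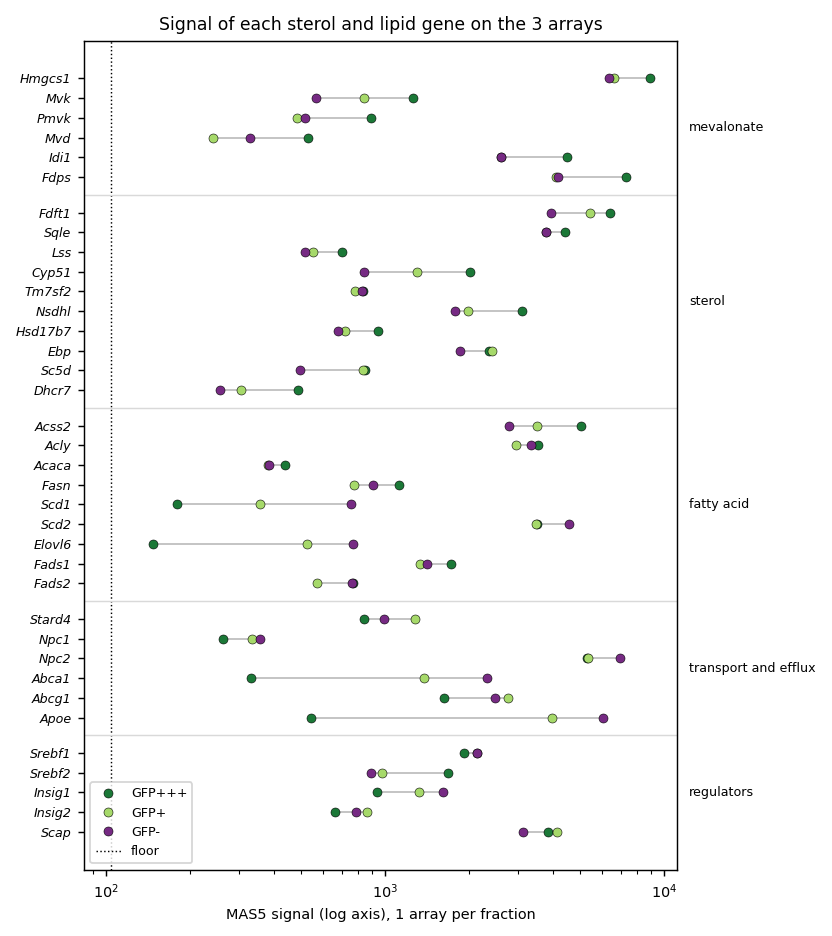
Signal of each of the 36 genes (log axis, MAS5 signal units) on the GFP+++, GFP+ and GFP- arrays, 1 point per array, with genes ordered by step; compare arrays within a gene only. Mevalonate and most sterol genes have their highest point on GFP+++, while Scd1, Elovl6, Abca1 and Apoe have their lowest point there.

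All 6 mevalonate genes measured had their highest signal on the GFP+++ array, where 39.1% of 12331 genes did. Of these 12331, 10458 lay above the floor on all 3 arrays, as all 36 did. The rest include genes under it in GFP+++, which could not be highest there. The share among the 10458 alone was not taken. Hmgcs1, which makes HMG-CoA, read 8903 in GFP+++, 6588 in GFP+ and 6337 in GFP-. Its other probe sets above the floor read lower in GFP+ than in GFP- (3111 against 3393, 4859 against 5546 and 1407 against 1497). Mvk, mevalonate kinase, read 1259, 844 and 568, falling from bright to dim fraction and standing 2.22-fold above GFP- on the GFP+++ array (log2 fold 1.15). It was the sole gene of the step past 2-fold in that comparison, with GFP+ in between. Pmvk, the next kinase, read 891, 483 and 517, and Mvd, the decarboxylase that yields the first isoprenoid, read 531, 241 and 327. Idi1, the isomerase of the isoprenoid units, read 4487, 2597 and 2599. Fdps, which joins them to farnesyl diphosphate, read 7294, 4091 and 4152. In these 4 genes GFP+++ stood apart from both other arrays, and GFP+ read no higher than GFP-, though with median scaling GFP+ stood just above GFP- for Pmvk, Idi1 and Fdps. Their log2 folds over GFP- were 0.79 for Pmvk, 0.70 for Mvd, 0.79 for Idi1 and 0.81 for Fdps, and that of Hmgcs1 was 0.49. The step's median log2 fold was 0.79, and all 6 genes lay above the array error of 0.30.

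The sterol step began from Fdft1, squalene synthase, which read 6418, 5416 and 3914 in GFP+++, GFP+ and GFP-. Sqle, the epoxidase often called rate limiting after mevalonate, read 4422, 3758 and 3774, a log2 fold of 0.23 for GFP+++ over GFP- that lay within the array error. Lss, which closes the ring to lanosterol, read 698, 554 and 517. Cyp51, the lanosterol demethylase, had the largest fold in the synthesis pathway. Its signals of 2007, 1303 and 839 fell from bright to dim fraction and were 2.39-fold apart between GFP+++ and GFP- (log2 fold 1.26). Nsdhl, a dehydrogenase that takes part in removing methyl groups from the ring, read 3086, 1979 and 1787, a log2 fold of 0.79. Dhcr7, the reductase that completes one branch to cholesterol, read 487, 306 and 257, a log2 fold of 0.92. Both were high on the GFP+++ array and close together on the others.

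Hsd17b7, the partner reductase of Nsdhl, read 945, 716 and 681. Sc5d, a desaturase late in the pathway, read 849, 831 and 494, so here GFP+ stood with GFP+++ and not with GFP-. The isomerase Ebp read 2357 in GFP+++, 2407 in GFP+ and 1862 in GFP-, the sole sterol gene with its highest signal outside GFP+++. Tm7sf2, a sterol reductase, was level on the 3 arrays at 834, 782 and 828. All 10 sterol genes had a log2 fold above 0 against GFP-, from 0.01 for Tm7sf2 to 1.26, and 8 lay above 0.30. The step's median was 0.59, and 9 of 10 genes were highest in GFP+++, where 39.1% of 12331 genes were.

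Several of these folds depend on the probe set read. Cyp51 passed 2-fold on its brightest probe set, and its other probe sets gave log2 folds of 0.91 and 0.59. Mvk passed on both of its own, at 1.15 and 1.01. Lss stood at 0.43 on the probe set used and at 1.44 on a second (554, 231 and 204 signal units). Hsd17b7 stood at 0.47 on the one used, and its others above the floor gave 1.19 and 0.03. Sc5d changed direction, from 0.78 on the probe set used to -0.27 on a dimmer one (153, 162 and 185). Its value rests on a single probe set. Of the 36 genes, 11 had 1 probe set, and 19 had several above the floor on both arrays. In 16 of these 19 all went the same way, and the exceptions were Sc5d, Acly and Fads1.

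**Figure D2:**
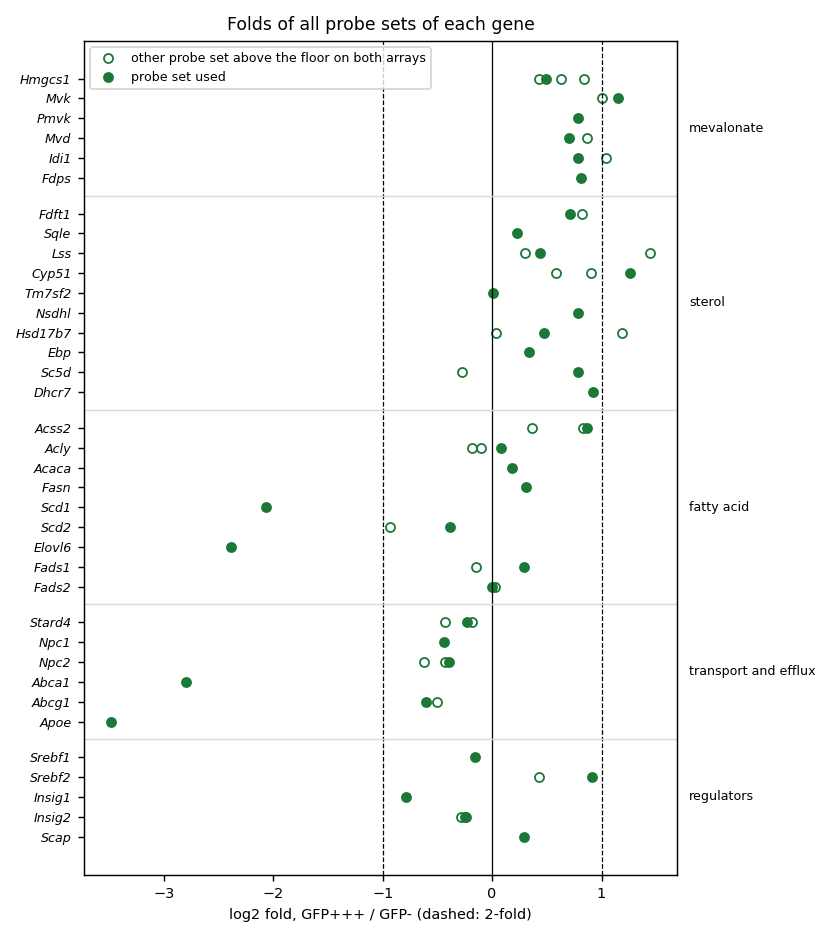
Log2 fold of GFP+++ over GFP- (horizontal axis) for each probe set above the floor on both arrays, filled for the probe set used and open for the others; dashed lines mark 2-fold. The probe sets of Lss, Cyp51, Hsd17b7 and Sc5d lie far apart, while those of Mvk and Acss2 include close pairs.

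SREBP binding sites in this pathway usually lie close to the start site beside boxes for the factors NF-Y and Sp1, so the promoters were read for these letters. RefSeq windows (mouse assembly GRCm38.p6, 250 bases before to 50 after the start site) were found for 29 of the 38 genes and were matched by symbol. The NF-Y box CCAAT was searched on both strands, so it also appears as ATTGG, together with the SREBP element TCACNCCAC, its classical form (an A put before it and C in place of N, so that any match also matches the former), the Sp1 box GGGCGG and the LXR repeat, AGGTCA in a direct repeat with 4 bases between. The 6 sequences that follow are the 250 bases before the start in gene orientation. They show the pathway's entry enzyme, both genes past 2-fold, the gene of SREBP-2, its brake Insig1, and the exporter Abca1 for contrast. Capitals mark CCAAT or ATTGG and TCACNCCAC.
Hmgcs1 (chr13:119690101-119690350, plus strand): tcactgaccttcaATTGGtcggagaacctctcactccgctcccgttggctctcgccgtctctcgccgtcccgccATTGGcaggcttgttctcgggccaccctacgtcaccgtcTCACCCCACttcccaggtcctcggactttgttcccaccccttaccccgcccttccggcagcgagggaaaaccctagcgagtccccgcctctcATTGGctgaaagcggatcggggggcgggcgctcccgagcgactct
Mvk (chr5:114444019-114444268, plus strand): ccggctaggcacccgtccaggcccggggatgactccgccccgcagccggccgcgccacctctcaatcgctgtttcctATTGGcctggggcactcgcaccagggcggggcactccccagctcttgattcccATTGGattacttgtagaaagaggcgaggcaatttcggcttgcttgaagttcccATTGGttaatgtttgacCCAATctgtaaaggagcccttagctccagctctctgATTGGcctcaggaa
Cyp51 (chr5:4104698-4104947, minus strand): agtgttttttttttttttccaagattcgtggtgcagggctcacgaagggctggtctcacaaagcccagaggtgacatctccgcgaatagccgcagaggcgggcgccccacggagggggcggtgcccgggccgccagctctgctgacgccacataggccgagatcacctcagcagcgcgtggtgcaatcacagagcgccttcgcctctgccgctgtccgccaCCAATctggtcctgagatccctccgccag
Srebf2 (chr15:82147019-82147268, plus strand): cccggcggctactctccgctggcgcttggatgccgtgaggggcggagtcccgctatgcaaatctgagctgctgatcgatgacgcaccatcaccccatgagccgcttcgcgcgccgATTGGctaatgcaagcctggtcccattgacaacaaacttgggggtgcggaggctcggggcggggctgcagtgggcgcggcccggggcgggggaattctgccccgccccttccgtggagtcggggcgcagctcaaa
Insig1 (chr5:28071162-28071411, plus strand): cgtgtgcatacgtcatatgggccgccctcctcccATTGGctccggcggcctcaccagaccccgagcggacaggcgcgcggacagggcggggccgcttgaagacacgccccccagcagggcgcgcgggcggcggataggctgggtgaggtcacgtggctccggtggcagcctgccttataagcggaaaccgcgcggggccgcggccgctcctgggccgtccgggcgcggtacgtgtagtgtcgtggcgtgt
Abca1 (chr4:53159896-53160145, minus strand): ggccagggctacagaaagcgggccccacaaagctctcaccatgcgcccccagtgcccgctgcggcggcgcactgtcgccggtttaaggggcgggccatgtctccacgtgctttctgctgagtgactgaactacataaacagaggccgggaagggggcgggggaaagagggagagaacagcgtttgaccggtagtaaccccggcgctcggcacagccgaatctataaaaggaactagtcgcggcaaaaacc

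The Mvk sequence holds 5 NF-Y boxes and that of Hmgcs1 holds 3, while those of Cyp51, Srebf2 and Insig1 hold 1 each and that of Abca1 none. The NF-Y box was in the windows of 13 of the 14 mevalonate and sterol genes that had a window, in 9 of the other 15 genes, and in 41.1% of all 27025 genes with a window. At least 2 boxes in a window were found in 8 of the 14 (Hmgcs1, Mvk, Mvd, Idi1, Nsdhl, Hsd17b7, Ebp and Dhcr7), in 3 of the 15 (Fasn, Npc2 and Insig2) and in 13.3% of all genes. The Sp1 box was in 24 of the 29 genes and in 38.2% of all. Of the SREBP element a match was found in 1 of the 29, Hmgcs1, as TCACCCCAC with its first base 137 bases before the start site, against 1.44% of all genes. The classical form and the LXR repeat had no match in the 29, and were in 0.0999% and 0.0148% of all genes. Genes with at least 2 boxes included Ebp, with a log2 fold of 0.34, as well as Mvk at 1.15. A match says only that the letters are there. Only the letters given were searched, so a window without a match may still hold a near form. The Srebf2 sequence, for example, holds atcaccccat, which differs from the classical form in its last letter.

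Fatty acid genes split by enzyme. Acss2, which makes acetyl-CoA from acetate, read 5049 in GFP+++, 3506 in GFP+ and 2774 in GFP-. Its log2 fold of GFP+++ over GFP- was 0.86, the highest of the group, and its other probe sets gave 0.83 and 0.37. On these GFP+++ was level with GFP+ (3332 and 3315) or below it (152 and 164). The enzymes of the main route differed little. Acly, which splits citrate, read 3530, 2933 and 3334, and Acaca, acetyl-CoA carboxylase, read 436, 379 and 384. Fasn, fatty acid synthase, read 1124, 775 and 906. The log2 folds over GFP- were 0.08 for Acly, 0.19 for Acaca and 0.31 for Fasn, and GFP+ was the lowest array for all of them. The other probe sets of Acly gave -0.11 and -0.18, so its direction is not set.

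Elovl6 and Scd1, which lengthen and desaturate saturated chains, were low in GFP+++. Elovl6, the elongase that takes palmitate to stearate, read 147 in GFP+++, 525 in GFP+ and 769 in GFP-, which is 5.22-fold lower in GFP+++ than in GFP- (log2 fold -2.38). A second Elovl6 probe set read 78.6, 270 and 452, with GFP+++ under the floor. Scd1, the stearoyl-CoA desaturase, read 180, 356 and 753, which is 4.18-fold lower in GFP+++ and 2.12-fold lower in GFP+ than in GFP-. Both genes read higher with each step down in GFP brightness. With the floor at the 65th percentile the log2 folds of GFP+++ over GFP- shrank to -1.48 for Elovl6 and -1.45 for Scd1, and with the median over probe sets that of Scd1 was -1.03. The second Scd1 probe set read 87.5, 80.0 and 87.5, under the floor throughout, so that Scd1 rests on 1 probe set. Scd2, the form of the same enzyme that prevails in brain, read 3492, 3474 and 4559. Its log2 folds over GFP- were -0.38 for GFP+++ and -0.39 for GFP+, the former turning to 0.03 with median scaling. A second Scd2 probe set read 598, 865 and 1144, a log2 fold of -0.94 for GFP+++ over GFP-. Against GFP+ the second gave -0.53, where the one used gave 0.01. Scd1 and Scd2 lie in a run of Scd genes on chromosome 19 and their probe sets could in principle share targets.

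Fads1 and Fads2 are neighbouring genes on chromosome 19 whose desaturases act on polyunsaturated chains. Fads1 read 1729, 1330 and 1409, and Fads2 read 765, 572 and 764, so Fads2 was level between GFP+++ and GFP- and both were lowest in GFP+. The second Fads1 probe set gave -0.15 for GFP+++ over GFP-, against 0.30 on the one used. Over the 9 fatty acid genes the median log2 fold was 0.08. None was at least 2-fold higher and 2 were lower, where 1.92% and 12.4% of all genes were. Of the 9, 6 had their highest signal in GFP+++ and 3 in GFP-, where 39.1% and 36.1% of 12331 genes did.

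All 6 transport and efflux genes measured read lower in GFP+++ than in GFP-, with a median log2 fold of -0.52, although Stard4 and Npc2 turned just above 0 with median scaling (0.19 and 0.02). Apoe, the lipoprotein that carries sterol between cells, had the largest fold of the 36 genes. It read 541 in GFP+++, 3976 in GFP+ and 6050 in GFP-, which is 11.2-fold lower in GFP+++ than in GFP- (log2 fold -3.48) and 7.34-fold lower than in GFP+. Abca1, which exports sterol to apolipoproteins, read 332, 1374 and 2310, a log2 fold of -2.80 against GFP- and -2.05 against GFP+. The GFP+++ array stood far below both others for each gene. The other Abca1 probe sets were dim, at 25.7, 81.1 and 180 and at 4.24, 29.3 and 47.0 signal units, and had the same order, and the median over its probe sets left a log2 fold of -0.79 against GFP-, within 2-fold.

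Abcg1, the exporter to formed particles, read 1630 on the GFP+++ array, 2763 on GFP+ and 2473 on GFP-. Its log2 fold of GFP+++ over GFP- was -0.60, with GFP+ at the top. A second Abcg1 probe set read 209, 272 and 296, with GFP- at the top. Stard4, a carrier of sterol through the cytosol, read 844, 1284 and 987. Npc2, which hands sterol over inside the lysosome, read 5282, 5336 and 6942, and Npc1, its partner in the lysosomal membrane, read 262, 333 and 355. These 4 genes stayed within 2-fold, and none had its highest signal in GFP+++, where 39.1% of 12331 genes did.

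Apoe, Abca1, Scd1 and Elovl6 are also made by cells other than neurons, and markers of such cells were lower on the same array. The summed signal of 13 macrophage markers was 703, 13621 and 19807 on the GFP+++, GFP+ and GFP- arrays, with all 13 lower on the GFP+++ array by 2-fold or more and 10 under the floor there. For 7 fibroblast markers the sums were 2374, 25256 and 41400, all 7 lower and 1 under the floor. For 6 markers of ensheathing glia and Schwann cells they were 1887, 6850 and 10327, all 6 lower and 3 under the floor. For 8 markers of Bowman's glands they were 7570, 33721 and 55669, all 8 lower and 2 under the floor. For 8 sustentacular cell markers they were 48087, 63177 and 86044, with 4 of 8 lower and none under the floor. Dividing cell markers summed to 3437, 7897 and 10554, with 6 of 6 lower. Of all genes compared, 12.4% were lower by 2-fold or more. Other lists had 4 of 5 horizontal basal, 4 of 4 microvillar and 2 of 2 erythroid markers lower. Endothelial and pericyte markers had only 2 of 7 lower. Neutrophil markers had 5 of 5 lower, with sums of 592, 12894 and 12140, so GFP+ was highest. The part of these cells in the signals of the 4 genes was not tested. In RNA of sorted cell mixtures, fewer cells of a type and less RNA per cell cannot be told apart.

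The 5 regulators ranged from -0.79 to 0.91 in log2 fold of GFP+++ over GFP-. Srebf2, the gene of SREBP-2, read 1679 in GFP+++, 974 in GFP+ and 894 in GFP-, which is 1.88-fold more in GFP+++ (log2 fold 0.91). A second probe set gave 0.43. Srebf1, the gene of SREBP-1, read 1921, 2132 and 2136, a log2 fold of -0.15 that rose to 0.26 with median scaling. Insig1, the inhibitor that is itself an SREBP target, read 935, 1327 and 1614, so it was 1.73-fold lower in GFP+++ (log2 fold -0.79) and ran opposite to Srebf2. It remained below 0 with median scaling, at -0.37. Insig2, the second inhibitor, read 664, 860 and 788, a log2 fold of -0.25 that turned to 0.17 with median scaling. Scap, the escort protein, read 3819, 4141 and 3116, with GFP+ the highest. None of the 5 passed 2-fold, where 1.92% of all genes were higher and 12.4% lower. Srebf2 was the sole regulator above the array error and Insig1 the sole one below it.

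**Figure D3:**
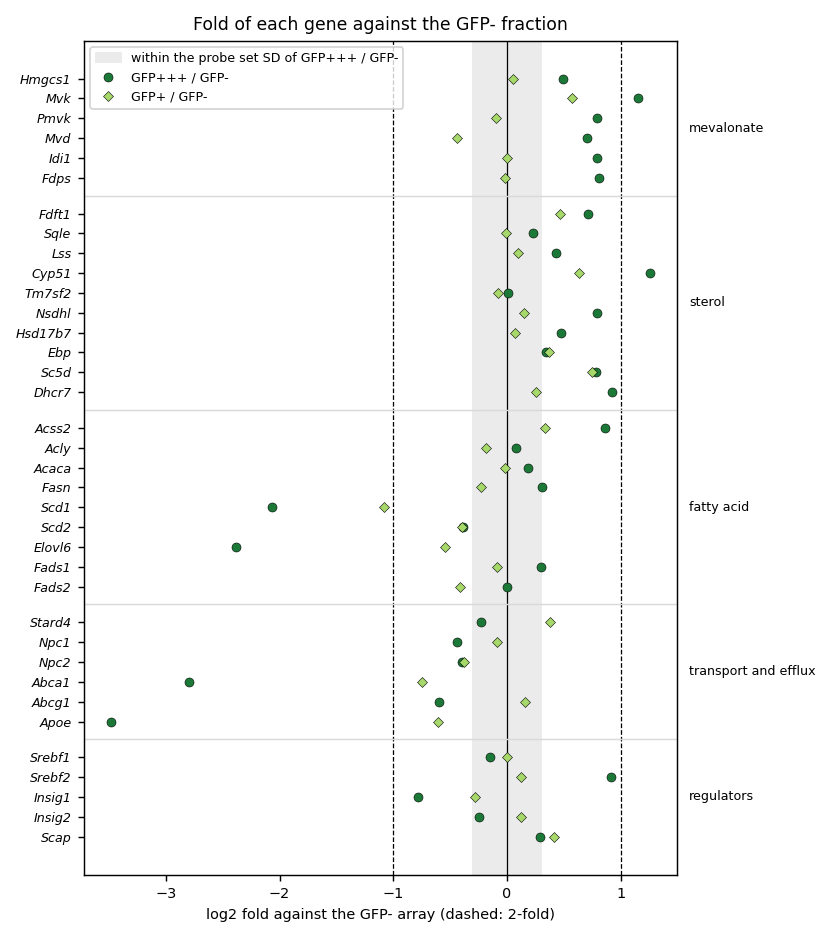
Log2 fold over the GFP- array (horizontal axis) of each gene for GFP+++ and for GFP+, 1 array each, both set against the same GFP- array; dashed lines mark 2-fold and the grey band the array error of 0.30. For GFP+++, Mvk and Cyp51 lie past 2-fold above and Scd1, Elovl6, Abca1 and Apoe past it below, while for GFP+ Scd1 alone passes, at -1.08 (-0.94 with median scaling).

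Between GFP+ and GFP- the genes differed far less. None of the 36 was at least 2-fold higher (0.607% of 12196 genes were) and 1 was lower, Scd1 at a log2 fold of -1.08 (0.804% were). The median was -0.00, and 16 of 36 genes lay above 0 where 48.8% of all genes did. Among genes above the floor on both arrays, 0.591% were higher, 0.73% lower and 50.3% above 0. The array error here was 0.24 (4979 genes), and 9 of the 36 lay above it (21.5% of all genes) and 9 below its negative (25.4%). The mevalonate step's median was -0.01, with Mvk at 0.57 and Mvd at -0.44. The sterol step's was 0.20, with Sc5d at 0.75, Cyp51 at 0.64 and Fdft1 at 0.47. Other probe sets gave less, -0.19 for Sc5d, 0.04 and 0.14 for Cyp51 and 0.22 for Fdft1. The fatty acid median was -0.23, with 8 of 9 genes below 0. Acss2 alone lay above, at 0.34 (0.82 and 0.48 on its other probe sets), although Acaca and Fads1 did so too with median scaling. Apoe was at -0.61, Abca1 at -0.75 and Elovl6 at -0.55, all below 0. With median scaling 25 of 36 genes lay above 0, and Acaca, Fads1, Fdps, Idi1, Npc1, Pmvk, Sqle, Srebf1 and Tm7sf2 changed direction.

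Between GFP+++ and GFP+, 1 gene was at least 2-fold higher, Mvd at 2.20-fold (0.985% of 11881 genes were), and 3 were lower, Apoe, Abca1 and Elovl6 (9.34% were). With the floor at the 65th percentile the calls for Mvd (0.95) and Elovl6 (-0.93) were lost, with median scaling 5 genes were higher, and with the median over probe sets 2 were higher and 2 lower. Of the 36, 23 lay above 0, where 47.9% of all genes did, and the median was 0.24. The shares among genes above the floor on both arrays were 1.01% higher, 7.12% lower and 52.1% above 0. With an array error of 0.30 (4640 genes), 16 of the 36 lay above it (20.4% of all genes) and 9 below its negative (29.6%). The mevalonate step had a median of 0.81, from 0.43 for Hmgcs1 to 1.14 for Mvd, and the sterol step 0.29, with Nsdhl at 0.64 and Dhcr7 at 0.67. Among the 16 mevalonate and sterol genes Ebp alone lay below 0, at -0.03, and above 0 with median scaling. With the median over probe sets Sc5d was also below (-0.09), and without _x_at and _s_at probe sets Hsd17b7 was (-0.16). Srebf2 was at 0.79 and Insig1 at -0.50. Scd1 was 1.98-fold lower and so just inside the threshold. Any pair of these comparisons shares an array, so they are not independent of each other.

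The rest of the pathway was read from lists of 140 other genes, of which 128 were measured. None of the 117 that could be compared was at least 2-fold above GFP- on the GFP+++ array, where 1.92% of all genes were. On that array 15 were 2-fold or more below, a share close to the 12.4% of all genes. The median log2 fold was -0.10. Among 11 efflux and oxysterol genes the median was -0.62 (-1.28 with no floor), and 5 were lower where 12.4% of all genes were. Apoc1, an apolipoprotein gene next to Apoe on chromosome 7, read 294, 964 and 1603 on the GFP+++, GFP+ and GFP- arrays and was 5.46-fold lower. Clu, which makes another apolipoprotein, read 1437, 5504 and 7361. Pltp, the phospholipid transfer protein, was at -1.91, the oxysterol enzyme Cyp27a1 at -1.64 and the cholesterol ester hydrolase Nceh1 at -1.28. Abca5, the other bright gene of the list, was at -0.35.

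Of 18 uptake and transport genes 3 were lower, near the share of all genes (12.4%). They were Lrp1, the large lipoprotein receptor, lower by at least 4.14-fold (45.4, 230 and 432 signal units, GFP+++ under the floor), Mylip, which has lipoprotein receptors degraded, at -1.62, and Stard5 at -1.45. The receptors Vldlr and Lrp8, picked out after their values were seen because both also receive Reelin, went the other way. Vldlr read 2306 in GFP+++, 1339 in GFP+ and 1204 in GFP-, a log2 fold of 0.94, and Lrp8 read 624, 384 and 387, a log2 fold of 0.69. Gramd1c, Scp2 and Osbpl9, the brightest of the list, were at -0.33, -0.46 and -0.01, all within 2-fold.

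Of 24 other fatty acid synthesis genes 4 were lower, again near that 12.4%. Elovl1, which elongates very long chains, read 215, 754 and 938 and was 4.36-fold lower, and Hacd4, a dehydratase of the same cycle, was at least 3.30-fold lower. Elovl5 was at -1.29 and the acyl-CoA synthetase Acsl5 at -1.10. The brightest genes, Tecr, Mid1ip1 and Acsl6, were at 0.14, 0.10 and 0.33. In GFP+ against GFP-, Me1, the malic enzyme that supplies NADPH, read 422 against 194 and Fads6 read 1352 against 619, both 2.18-fold higher (2 of 24 genes, where 0.607% of all genes were). The call for Me1 was lost with the floor at the 65th percentile (0.61) and that for Fads6 with the median over probe sets (0.78). Of 16 oxidation genes 3 were lower (12.4% of all genes were), Acadl at -2.04, Cpt1a, the gate of mitochondrial import, at -1.69 and Hadh at -1.34, whereas the bright Acadm and Hadhb stood at -0.58 and -0.03. The lists' medians were 0.11 for fatty acid synthesis, -0.23 for uptake and transport and -0.19 for oxidation, and with median scaling 0.52, 0.12 and 0.22.

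The remaining lists held no gene past 2-fold in GFP+++ against GFP-, where 1.92% of all genes were higher and 12.4% lower. The other 16 sterol and isoprenoid genes had a median of 0.07, with Fnta, Zmpste24 and Nus1, which act in prenylation and dolichol synthesis, at 0.23, -0.10 and -0.13. Msmo1, the sterol oxidase that acts with Nsdhl and was picked out after its values were seen, read 2151, 1392 and 1210, a log2 fold of 0.83. Other sterol genes of that list, picked out in the same way, read lower in GFP+++ than in GFP-, namely Lbr, a sterol reductase, at 1344, 2027 and 2243 (log2 fold -0.74) and Erg28, a scaffold of sterol enzymes, at 1821, 1888 and 1959 (-0.11, and above 0 with median scaling at 0.31). The 12 other regulators had a median of -0.21 (0.20 with median scaling), with Rnf139 at -0.19, Erlin2 at -0.23 and Erlin1 at 0.46. The 20 phospholipid synthesis genes had a median of -0.00, with Ptdss2, Ptdss1 and Agpat4 at 0.09, 0.25 and 0.81.

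**Figure D4:**
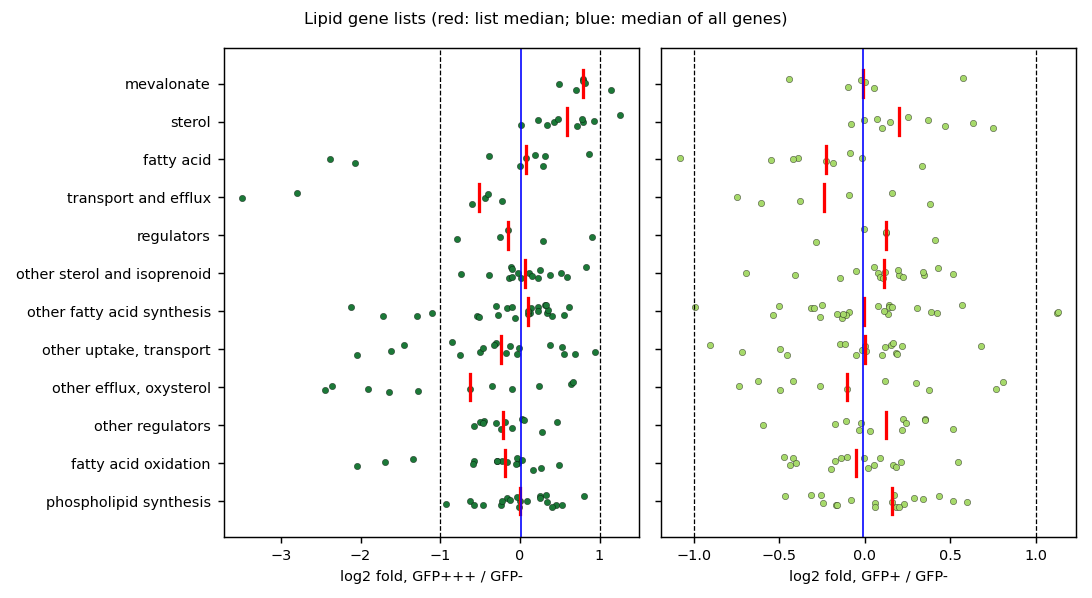
Log2 fold of every gene of the 5 steps and 7 further lipid lists in GFP+++ over GFP- (left) and GFP+ over GFP- (right), 1 array per fraction; red bars are list medians, the blue line is the median of all genes and dashed lines mark 2-fold. The mevalonate and sterol steps have medians of 0.79 and 0.59 on the left, and the other efflux and oxysterol list -0.62.

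The order of the steps did not rest on the scaling. Median scaling raised every step median, but only that of the regulators changed side of 0, from -0.15 to 0.26. Relative to the median of all genes, the mevalonate step stood at 0.78 and the sterol step at 0.58 in GFP+++ over GFP-, against 0.78 and 0.59 with median scaling and 0.73 and 0.51 with quantile normalization. Transport and efflux stood at -0.53, -0.52 and -0.60, and the regulators at -0.16, -0.16 and -0.27. The fatty acid step stood at 0.07, 0.08 and -0.04, so it has no settled direction. Under median scaling 12 genes were at least 2-fold higher (Acss2, Cyp51, Dhcr7, Fdft1, Fdps, Idi1, Mvd, Mvk, Nsdhl, Pmvk, Sc5d and Srebf2), and the same 4 were lower. All genes then split into 1129 higher and 1045 lower, against 235 and 1522.

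**Figure D5:**
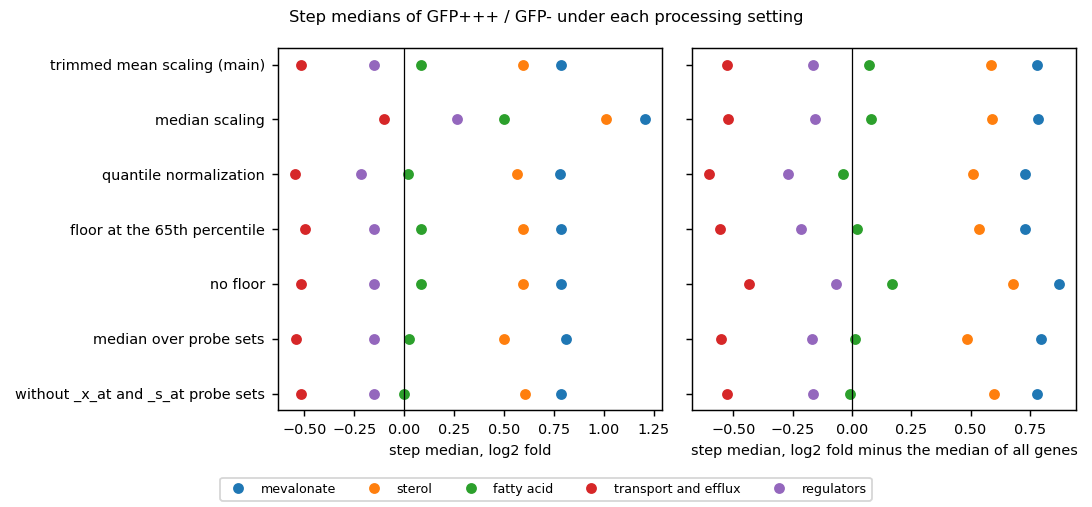
Median log2 fold of GFP+++ over GFP- of each step under 7 ways of processing, as it stands (left) and minus the median of all genes (right). Median scaling moves every step to the right on the left panel, taking the regulators from -0.15 to 0.26, and the order of the steps is the same in each row.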

How the data were processed

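RNA of 3 sorted cell fractions was hybridised to Affymetrix mouse expression arrays, 1 array per fraction. The deposited values are signal intensities on a linear scale, which the authors produced with MAS5 (version and settings not given in the sources used here), per the submitters' processing notes. No detection calls were used, so a probe set without signal has a positive value.

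The deposited intensities were brought to the same 2% trimmed mean on each array. A floor at the pooled median (104) replaced smaller signals before log2 folds between arrays were computed. Each gene was represented by its brightest probe set (mean of the 3 arrays). Of 45101 probe sets, 34958 had 1 gene symbol, 932 several and 9211 none; 34754 were matched to RefSeq (GRCm38.p6) by Entrez identifier. Folds of 2 or more were counted. No fold was taken for genes below the floor on both arrays, and a fold with 1 array under it is a lower bound. With 1 array a fraction no test was run, and this number limits the precision. The script was tested on simulated data. Python 3.11.15, numpy 2.4.6 and pandas 2.3.3 were used.

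The genes and lists were chosen with earlier results of these data known, and the higher sterol genes are therefore no independent evidence. Every listed gene is given. Of each further list, genes past 2-fold and up to 3 of the brightest are named. Alternatives were median scaling, quantile normalization, a floor at the 65th percentile, no floor, the median over probe sets, and omission of _x_at and _s_at probe sets. Some genes of the further lists were not analysed here.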

Additional observations from a re-analysis of the deposited data

How the results depend on the processing

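In GFP+++ over GFP-, scaling by the median gave 12 listed genes at least 2-fold higher in place of 2 and a median of 0.71, with step medians of 1.20 (mevalonate), 1.01 (sterol), 0.50 (fatty acid), -0.10 (transport and efflux) and 0.26 (regulators). The other pathway genes then had 8 higher, where 1129 of 12184 genes were, and a median of 0.31. With no floor 1 was higher and 24 were lower, where 932 and 4082 of 18193 genes were. In GFP+ over GFP-, 0 listed genes were lower with median scaling or the median over probe sets (Scd1 at -0.94 and -0.54). There 1 other pathway gene was higher with the 65th percentile floor or the median over probe sets, and 3 were lower with no floor. All genes had 40 of 9719 and 59 of 11512 higher in the former settings, and 1459 of 18193 lower with no floor. In GFP+++ over GFP+, 5 listed genes were higher with median scaling, 0 with the 65th percentile floor (Mvd at 0.95) and 2 with the median over probe sets. Among other pathway genes 2 were higher with median scaling, 20 were lower with no floor and 8 with the median over probe sets. For all genes these counts were 416 of 11976, 3295 of 18193 and 747 of 11194. The split of all genes into higher and lower with median scaling was 131 to 46 for GFP+ over GFP- (74 to 98 before) and 416 to 767 for GFP+++ over GFP+ (117 to 1110 before). With the median over probe sets, GFP+++ over GFP- gave 0.59 for Cyp51, 1.44 for Lss and -0.79 for Abca1, where the other Abca1 probe sets are dim. All 16 mevalonate and sterol genes remained above 0 in GFP+++ over GFP- under every alternative except the median over probe sets (15, Sc5d at -0.27). Beyond what the alternatives are built to change, the cause was not tested. No paired analysis was possible because each fraction had 1 array, and for the same reason no array could be left out. Signal near the floor limits Scd1 and Elovl6 in GFP+++.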
